A study of Arabidopsis thaliana with 6 samples.

Results

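The subject is the response of wild-type Arabidopsis thaliana seedlings (accession Col-0) to growth in red light, measured against seedlings of the same accession kept in darkness. It rests on 3 of the 6 two-colour arrays of the study, those whose titles name red light Col-0 over dark Col-0. The other 3 arrays compared dark-grown pifQ seedlings with dark-grown Col-0 and are used here for the spread and as a second set of values. The pifQ seedlings carry mutations in PIF3, PIF4, PIL5 (also called PIF1) and PIL6 (also called PIF5). Seeds of all groups were imbibed in the cold and dark for 3 days at 4 °C on a medium with 1% sucrose. White light for 6 h (fluence rate 100 μmol m-2 s-1) then started germination. Seedlings were next kept for 60 h in darkness or in red light, whose fluence rate was 24 μmol m-2 s-1. Dark Col-0, the control of both groups, had therefore also received the white light that starts germination, and sugar was present in every group. Whole seedlings were used, and the labels describe 3 separately grown and harvested replicates per group with 1 array each. On every array the sample was labelled with Cy5 and dark Col-0 with Cy3, with no dye swap, so that an effect of the dyes and an effect of light cannot be told apart gene by gene.

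A seedling that germinates in darkness follows a programme called skotomorphogenesis: the hypocotyl elongates, the cotyledons stay small and closed, and plastids remain etioplasts without chlorophyll. Red light activates phytochromes, which enter the nucleus and remove PIF proteins, the bHLH transcription factors that hold the seedling in the dark form. The seedling then de-etiolates: elongation slows, the cotyledons open and green, and chloroplasts with a photosynthetic apparatus develop.

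Each value is a log ratio of the red light sample over dark Col-0, taken as base 2, so that 1 stands for a level 2-fold higher in red light and -1 for a level 2-fold lower. Values are given as the mean ± SD over the 3 red light arrays. A gene is called where its mean differs from 0 by limma at an adjusted p under 0.05 (Benjamini-Hochberg over all genes tested). By that rule 2731 of 7234 measured genes (37.8%) were called, 18.8% of all genes higher in red light and 19.0% lower. At least 2-fold and called were 6.30% of all genes on the higher side and 3.58% on the lower side. The counts of gene groups below are to be read against these shares. The groups hold only genes matched by symbol or name, 582 of the 7234. Measured genes of a group are those matched in this way. A family member without such a match is not counted, so the groups are not a full survey of a function. In whole seedlings, fewer cells of a type and less RNA per cell cannot be told apart.

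The upper end of the response reached farther from 0 than the lower end. Called genes changed at least 4-fold numbered 79 on the higher side and 42 on the lower side, those changed at least 8-fold 18 and 7, and those changed at least 16-fold 7 and 1. The median of the called genes was 0.80 on the higher side and -0.60 on the lower side, while the median of all genes was -0.02. Many calls were small: 674 of the called genes, 24.7%, had a mean within 0.5 of 0. The 3 red light arrays gave 2725 of the 2731 called genes the same sign on every array. They did not give the same size. Among the 715 called genes that changed at least 2-fold, the ratio nearest to 0 was that of replicate 3 in 441 genes, of replicate 2 in 196 and of replicate 1 in 78. The SD over all genes was 0.69, 0.75 and 0.60 on replicates 1, 2 and 3. Replicates 2 and 3 were least alike, with r = 0.812 across genes, against 0.876 for replicates 1 and 2 and 0.913 for replicates 1 and 3 (genes are not independent points).

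**Figure D1:**
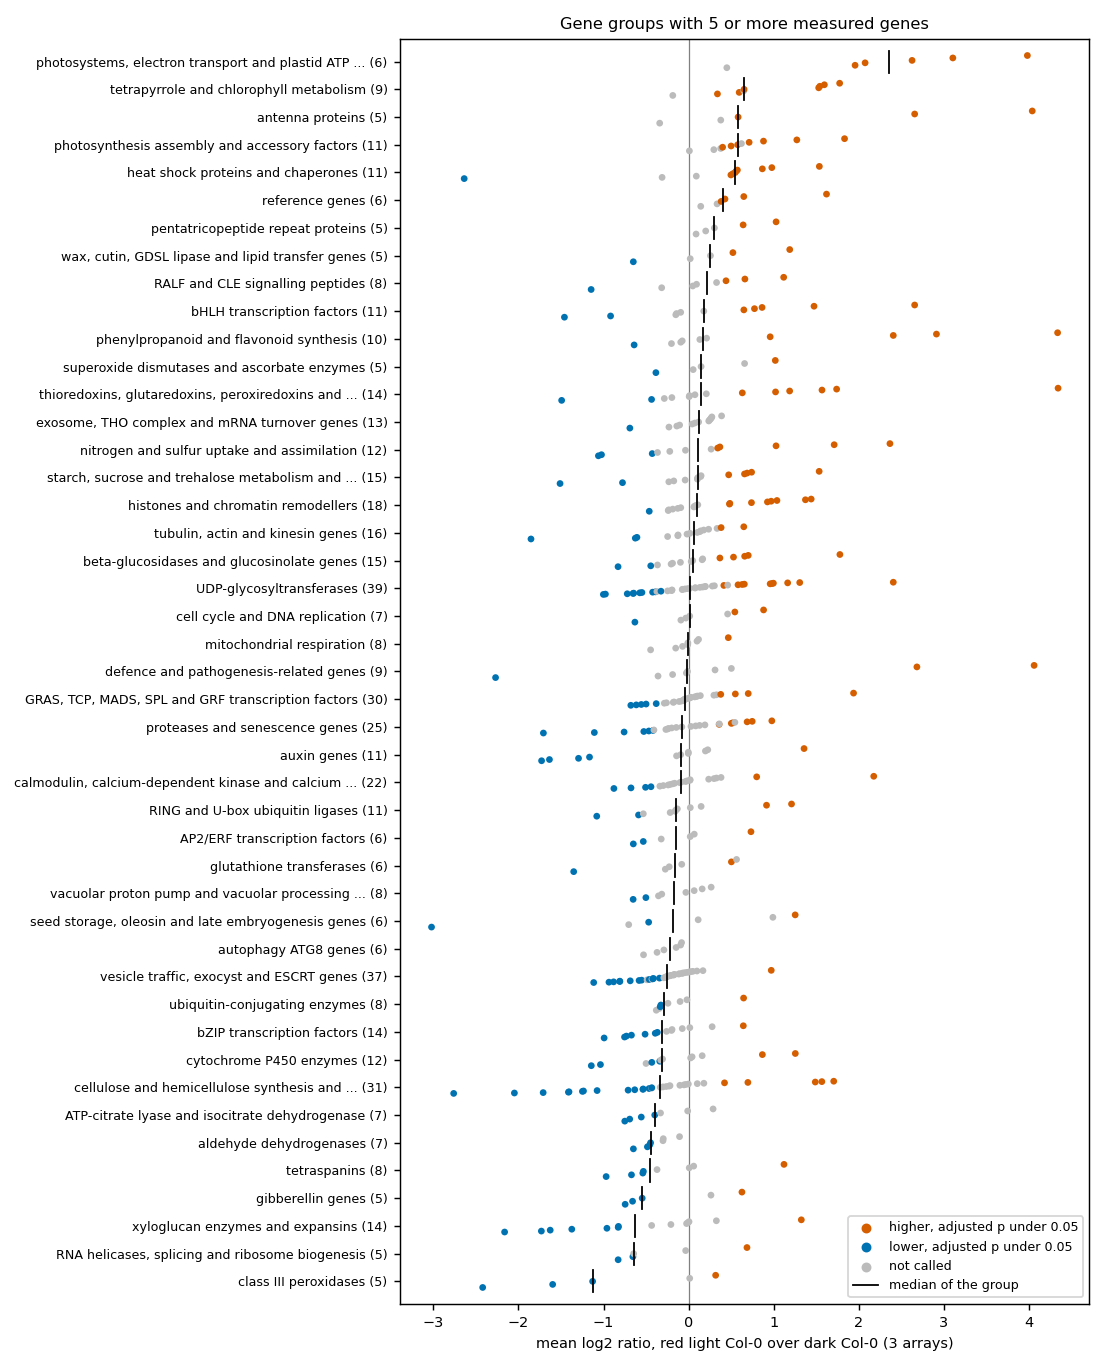
Mean log2 ratio of red light over dark Col-0 (horizontal axis) for each of 526 genes in the 45 gene groups with at least 5 measured genes, with the number of measured genes in parentheses. Points are genes coloured by call, and black ticks are group medians, from 2.35 for photosystems, electron transport and the plastid ATP synthase at the top to -1.13 for class III peroxidases at the bottom.

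Of the 45 groups in the plot of gene groups, the photosynthetic apparatus had the highest median. Of 6 measured genes for photosystem subunits, electron transport and the plastid ATP synthase, 5 rose, all of them more than 2-fold, and the median of the 6 was 2.35. PSBW (AT2G30570), a small subunit of photosystem II, read 3.69, 4.39 and 3.86 on replicates 1, 2 and 3, which is 15.8-fold (3.98 ± 0.36, adjusted p = 3.37e-05). PSBY (AT1G67740), another small subunit of photosystem II, read 3.16, 3.56 and 2.59 (3.11 ± 0.49). In both genes replicate 2 was highest, and all arrays lay beyond 4-fold. PSB27 (AT1G03600), a lumen protein that assists photosystem II assembly, read 1.93, 2.44 and 1.51 (1.96 ± 0.47). ATPC1 (AT4G04640), the gamma subunit of the ATP synthase, was nearly level at 2.77, 2.59 and 2.52 (2.63 ± 0.12). The thylakoid NDH complex, which cycles electrons around photosystem I, had 2 measured subunits. NdhU (AT5G21430) rose 4.21-fold, at 1.93, 2.19 and 2.10 on the 3 arrays. NdhL (AT1G70760) did not pass, at 0.21, 1.11 and 0.03 (adjusted p = 0.16), with replicate 2 far above the other arrays. All 5 calls held under every alternative processing tried.

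Of 5 measured antenna genes 3 rose, and all 3 encode LHCB4, the minor antenna protein CP29 of photosystem II. The LHCB4 genes differed in size of response. LHCB4.1 stood between 3.68 and 4.31 on the 3 arrays and LHCB4.2 between 2.45 and 2.92, while LHCB4.3 stood between 0.40 and 0.83, so that the arrays of the 3 genes do not overlap. The related light-harvesting-like genes LIL3:1 (0.38 ± 0.19) and LIL3:2 (-0.34 ± 0.23), whose products anchor an enzyme of chlorophyll synthesis, did not pass. The call of LHCB4.3 ended without any 1 of the red light arrays (highest adjusted p under an alternative 0.153).

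In carbon fixation all 3 measured Calvin cycle genes rose. RCA (AT2G39730), Rubisco activase, was nearly level at 3.72, 3.59 and 3.74, a 12.9-fold rise. SBPASE (AT3G55800), sedoheptulose-bisphosphatase, read 1.54, 1.50 and 0.97 (1.34 ± 0.32). PRK (AT1G32060), phosphoribulokinase, which makes the substrate of Rubisco, read 1.12, 0.98 and 0.71 (0.94 ± 0.21), and its call ended without red light replicate 1 or 2. Both of these genes were lowest on replicate 3. HPR (AT1G68010), the hydroxypyruvate reductase of photorespiration and its only measured gene here, rose at 1.75, 1.41 and 1.56.

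Of 9 measured genes of tetrapyrrole and chlorophyll metabolism 7 rose and none fell, with a median of 0.65. HEME1 (AT3G14930) and HEME2 (AT2G40490), both uroporphyrinogen decarboxylases, stood at 1.78 ± 0.17 and 1.60 ± 0.21. CHLI2 (AT5G45930), a subunit of magnesium chelatase, read 1.86, 1.52 and 1.25, and CHLM (AT4G25080), the methyltransferase that follows it, read 1.66, 1.51 and 1.42. In these 4 genes replicate 1 was the highest array. The measured genes of earlier steps moved less, and HEMA1 was not among the 9 measured. HEMB1, aminolevulinate dehydratase, stood at 0.65 ± 0.15 and HEMA3, a glutamyl-tRNA reductase, at 0.34 ± 0.05. GSA1 (0.65 ± 0.13, adjusted p = 0.095) and HEMA2 (-0.19 ± 0.04, adjusted p = 0.27), which also act at the start of the pathway, did not pass. NOL, a chlorophyll b reductase of chlorophyll breakdown, rose by 0.60 ± 0.24. The calls of HEMB1, HEMA3 and NOL ended under some alternatives, with adjusted p up to 0.202, 0.198 and 0.153.

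**Figure D2:**
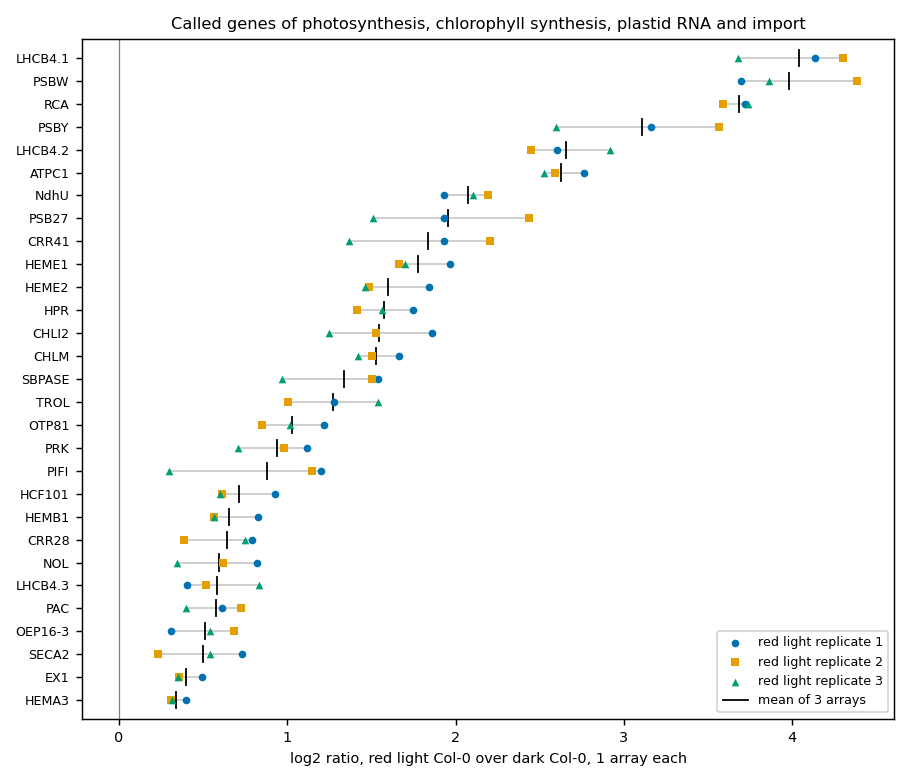
Log2 ratio of red light over dark Col-0 on each red light array (points) and their mean (black tick) for the 29 called genes of the groups of photosynthesis, photorespiration, chlorophyll synthesis, pentatricopeptide repeat proteins and plastid import. All 29 lie above 0, from 4.04 for LHCB4.1 to 0.34 for HEMA3, and replicate 3 (triangles) is often the lowest array. The genes include called assembly factors of the thylakoid complexes, a group added after its values had been seen.

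Of 11 measured genes for factors that assemble or regulate the thylakoid complexes 7 rose, none fell and the median was 0.58. This group was added after its values had been seen, so no direction should be read from these counts. The largest was CRR41 (AT1G51100), needed for assembly of the NDH complex, at 1.93, 2.20 and 1.37. TROL, which tethers ferredoxin-NADP reductase to the thylakoid, read 1.28, 1.01 and 1.54, and PIFI, a factor of the post-illumination rise in chlorophyll fluorescence, read 1.20, 1.15 and 0.30. Replicate 3 was highest for TROL and lowest for PIFI. PAC, a chloroplast RNA-binding protein, stood at 0.58 ± 0.17, and HCF101, which loads iron-sulfur clusters for photosystem I, at 0.71 ± 0.18. The calls of CRR41 and PAC held under every alternative, and those of TROL, PIFI, HCF101, SECA2 and EX1 did not: without red light replicate 1 only 2 of the 11 genes were called. CaS (AT5G23060), the calcium-sensing protein of the thylakoid, rose 4.52-fold, at 2.22, 2.09 and 2.22. Of 5 measured pentatricopeptide repeat genes 2 rose: OTP81 (1.03 ± 0.18) and CRR28 (0.64 ± 0.22), whose products edit plastid RNA. The call of CRR28 ended under some alternatives.

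Plastid thioredoxins and related enzymes carry reducing power from the photosystems to target proteins or repair oxidised ones. Of 14 measured genes of thioredoxins, glutaredoxins, peroxiredoxins and methionine sulfoxide reductases, 6 rose and 2 fell. MSRB6 (AT4G04840), a methionine sulfoxide reductase, read 4.25, 4.64 and 4.14, a 20.3-fold rise (adjusted p = 2.89e-06). Its relative MSRB9 (AT4G21850) went the other way, at -1.49 ± 0.43, with -1.73 on replicate 1, -1.75 on replicate 3 and replicate 2 nearer to 0. The other measured MSRB genes, MSRB3, MSRB4 and MSRB8, stood between -0.29 and 0.21 and did not pass. MSRB members are similar in sequence, and whether the features tell them apart was not tested. PRXQ (AT3G26060), a plastid peroxiredoxin, stood at 1.74 ± 0.24. Among plastid thioredoxins, y2 (AT1G43560) read 1.55, 2.06 and 1.09, x (AT1G50320) 0.95, 1.37 and 0.75, and f2 (TRXF2), an activator of Calvin cycle enzymes, 1.20, 1.42 and 0.95. The call of TRXF2 ended under some alternatives. In these 3 thioredoxins replicate 2 was highest and replicate 3 lowest. Thioredoxin y1 (AT1G76760), by contrast, stood at -0.43 ± 0.22, and its call ended without red light replicate 1 or 3. VTC4 (AT3G02870), an enzyme of ascorbate synthesis, rose at 0.99, 1.07 and 1.00.

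Of 10 measured genes of phenylpropanoid and flavonoid synthesis 4 rose and 1 fell, with a median of 0.17, and the 3 largest increases were of enzymes that make or modify anthocyanins. DFR (AT5G42800), dihydroflavonol reductase, read 4.56, 4.00 and 4.45, a 20.2-fold rise (adjusted p = 9.06e-06). AT5MAT (AT3G29590), which malonylates anthocyanins, read 2.82, 2.70 and 3.22 (7.54-fold). UGT78D2 (AT5G17050), the 3-O-glucosyltransferase of flavonols and anthocyanidins, was almost level at 2.44, 2.42 and 2.37 (2.41 ± 0.04). UGT78D1, a flavonol rhamnosyltransferase, rose by 0.96 ± 0.21, while UGT78D3, a flavonol arabinosyltransferase, stayed at -0.07 ± 0.05 (adjusted p = 0.61). HCT (AT5G48930), which leads phenylpropanoids toward lignin, fell by 0.64 on the log2 scale, at -0.69, -0.61 and -0.62. These 5 calls held under every alternative.

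Genes that loosen and build the cell wall fell more often than they rose. Of 14 measured xyloglucan endotransglucosylase and expansin genes, whose products loosen walls during elongation, 7 fell and 1 rose (median -0.63). XTH19 (AT4G30290) read -2.03, -2.59 and -1.87, which is 4.48-fold lower in red light (adjusted p = 8.64e-05). EXPA9 (AT5G02260) read -1.79, -2.02 and -1.38, XTH33 (AT1G10550) -1.65, -1.31 and -1.92, and EXLA2 (AT4G38400) -1.31, -1.29 and -1.51. No array of these 4 genes lay nearer to 0 than -1.29. EXPB3 (AT4G28250), a beta-expansin, was the exception, at 1.34, 1.45 and 1.19. EXPB1 (0.33 ± 0.06, adjusted p = 0.11) and EXPA18 (-0.21 ± 0.41, adjusted p = 0.33), the latter the only measured marker of root hairs, did not pass. The calls of EXPA4, EXPA8 and XTH20, at -0.96, -0.82 and -0.83, ended under some alternatives, with adjusted p up to 0.144.

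Of 31 measured genes of cellulose and hemicellulose synthesis, wall acetylation and endoglucanases, 14 fell and 5 rose (median -0.33). The endoglucanases of glycosyl hydrolase family 9 fell most. GH9B12 (AT2G44570) read -3.09, -3.04 and -2.16 (6.78-fold lower), GH9B13 (AT4G02290) -2.23, -1.92 and -1.99, and GH9B8 (AT2G32990) -1.88, -1.63 and -1.61. GH9C2 and GH9C3 stood at -1.41 ± 0.46 and -1.41 ± 0.21. The trichome birefringence-like genes, some of which encode acetyltransferases of wall polysaccharides, split by direction. TBL41, TBL38 and TBL36 fell, at -1.25 ± 0.32, -1.24 ± 0.13 and -1.08 ± 0.11. TBL15 (AT2G37720) rose, at 1.73, 1.73 and 1.24, and so did TBL45 (AT2G30010), at 1.35, 1.67 and 1.44. CSLB03 (AT2G32530), a cellulose synthase-like gene, rose 3.26-fold, at 1.90, 1.53 and 1.69. COB, which guides cellulose deposition in elongating cells, and IRX15, a factor of xylan synthesis, stood at -0.46 ± 0.18 and -0.63 ± 0.23. Of these 19 calls 12 held under every alternative, 3 of them higher and 9 lower.

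Other wall genes were also lower. PME61 (AT3G59010), a pectin methylesterase, read -2.50, -2.11 and -2.20 (4.82-fold lower). The wall groups hold genes matched by name only. ATPMEPCRD and AT5G19890, given below among the largest decreases, were not matched to them. Of 5 class III peroxidases so matched, which crosslink or oxidise wall polymers, 3 fell. AT2G41480 (PRX25) read -2.63, -2.56 and -2.07, AT5G66390 (PRX72) -1.70, -1.67 and -1.42, and Prx37 -1.16, -1.47 and -0.75. Replicate 3 lay nearest to 0 in each of these 3. PRXR1 was called higher at 0.32 ± 0.16, a call that ended under 9 alternatives.

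**Figure D3:**
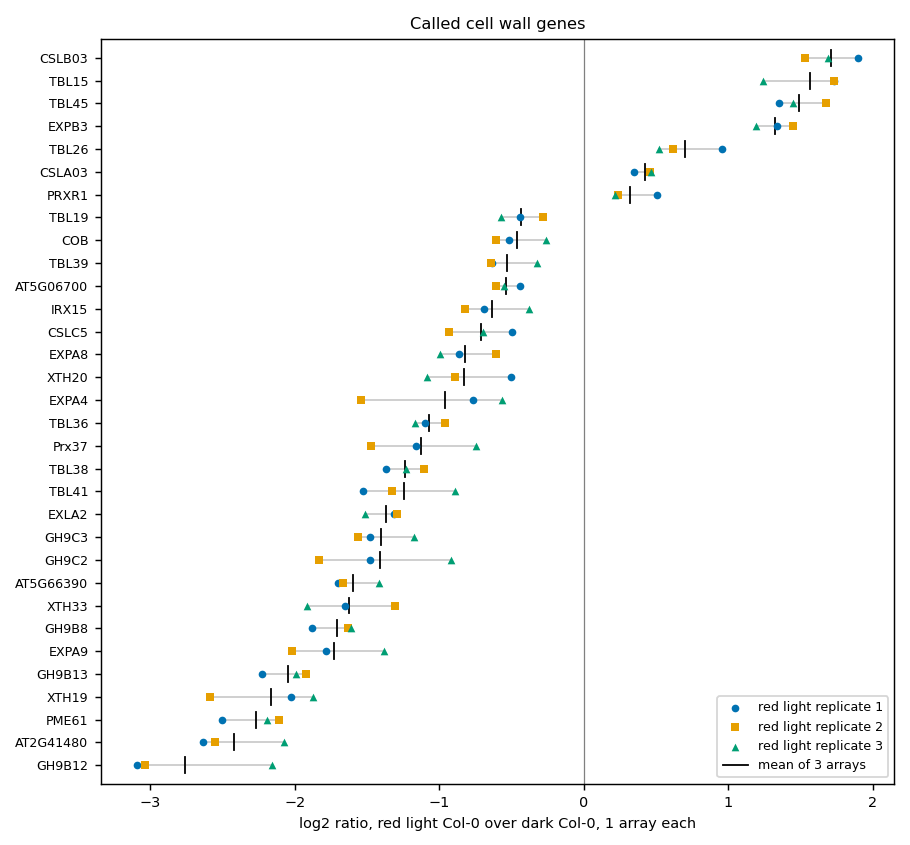
Log2 ratio of red light over dark Col-0 on each red light array (points) and their mean (black tick) for the 32 called genes of xyloglucan, expansin, pectin, cellulose, hemicellulose and peroxidase groups. There are 25 genes below 0, down to -2.76 for GH9B12, and 7 above 0, up to 1.71 for CSLB03.

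Of 11 measured auxin genes 4 fell and 1 rose, each more than 2-fold, and the other 6 did not pass, so that the median was -0.09. IAA29 (AT4G32280), an auxin-induced Aux/IAA repressor, read -1.82, -1.68 and -1.68 (3.31-fold lower). WAG2 (AT3G14370), a kinase that acts on auxin efflux carriers, read -1.73, -1.85 and -1.32. HAT2 (AT5G47370), an auxin-induced homeodomain-leucine zipper factor, and IAGLU (AT4G15550), which conjugates auxin to glucose, stood at -1.29 ± 0.14 and -1.16 ± 0.10. GH3.9 (AT2G47750), of the family that conjugates auxin to amino acids, rose, at 1.53, 1.01 and 1.53. Its relatives GH3.1, GH3.3 and GH3.17 stood between -0.14 and 0.23 and did not pass, nor did the auxin synthesis gene YUC4 (adjusted p = 0.99). The 5 auxin calls held under every alternative.

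Among 5 gibberellin genes the receptors GID1C and GID1B fell, at -0.75 ± 0.11 and -0.66 ± 0.36. SPY, a repressor of gibberellin signalling, stood at -0.55 ± 0.28, and SLY2, an F-box protein of the pathway, at 0.63 ± 0.31. Only the call of GID1C held under every alternative: those of GID1B, SPY and SLY2 reached adjusted p of 0.113, 0.153 and 0.117 under some. EXO (AT4G08950), a growth gene induced by brassinosteroid, read -1.74, -1.60 and -1.57. EIN3, a transcription factor of ethylene signalling, was lower at -0.53 ± 0.24, and its call ended without red light replicate 1 or 2. Both measured jasmonate genes rose: JMT (AT1G19640), jasmonic acid methyltransferase, read 0.91, 0.97 and 0.84, and JRG21 (AT3G55970), a jasmonate-regulated gene, 0.75, 0.79 and 0.91.

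Among the transcription factor groups, PIF7 had the largest increase. PIF7 (AT5G61270), a phytochrome-interacting factor that was not mutated in pifQ and acts in shade responses, read 2.77, 2.73 and 2.47, a 6.31-fold rise (adjusted p = 2.89e-06). ATMYC1 (AT4G00480), a bHLH factor of epidermal cell fate, read 1.56, 1.53 and 1.33. FMA (AT3G24140, also called FAMA), which completes guard cell fate and was the only measured marker of guard cells, read 0.92, 0.85 and 0.82. The iron-related members pointed both ways. BHLH101 (AT5G04150), an iron deficiency factor, read -1.52, -1.97 and -0.89, and bHLH121, another regulator of iron uptake, -0.93, -0.88 and -0.94, while bHLH34 stood at 0.65 ± 0.28. Of 11 measured bHLH genes 5 rose and 2 fell, and these calls held under every alternative. GI (AT1G22770), a clock component that also promotes flowering, rose at 0.71, 0.60 and 0.78.

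The bZIP family leaned down: of 14 measured genes 7 fell and 1 rose (median -0.31). FD (AT4G35900), which acts in flowering, was lowest at -0.75, -1.25 and -0.97, and BZIP24 was the member that rose, at 0.64 ± 0.15. BZIP28, a membrane-bound sensor of stress in the endoplasmic reticulum, stood at -0.39 ± 0.22. Without red light replicate 2, 3 of the bZIP genes were called lower in place of 7. In dark pifQ the median of the 14 genes was -0.32. None of the 14 was called for a difference between red light and pifQ by limma, and 5 had an unadjusted p under 0.05. In the GRAS, TCP, MADS, SPL and GRF families 21 of 30 genes did not pass. The largest value there was AGL87 (AT1G22590), a MADS-box gene, at 1.98, 2.50 and 1.34, and only AGL87 and AGL93 (-0.68 ± 0.21) were called under every alternative. YAB5 (AT2G26580), a YABBY factor of leaf polarity, read 1.98, 2.00 and 1.09, with replicate 3 far below the others. MYBC1 (AT2G40970) read -1.19, -1.09 and -1.60. None of the 4 measured WRKY genes was called by limma, and 1 had an unadjusted p under 0.05. Their means lay between 0.07 and 0.32, and 1 of them was called with the 3 red light arrays fitted alone and with array weights.

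**Figure D4:**
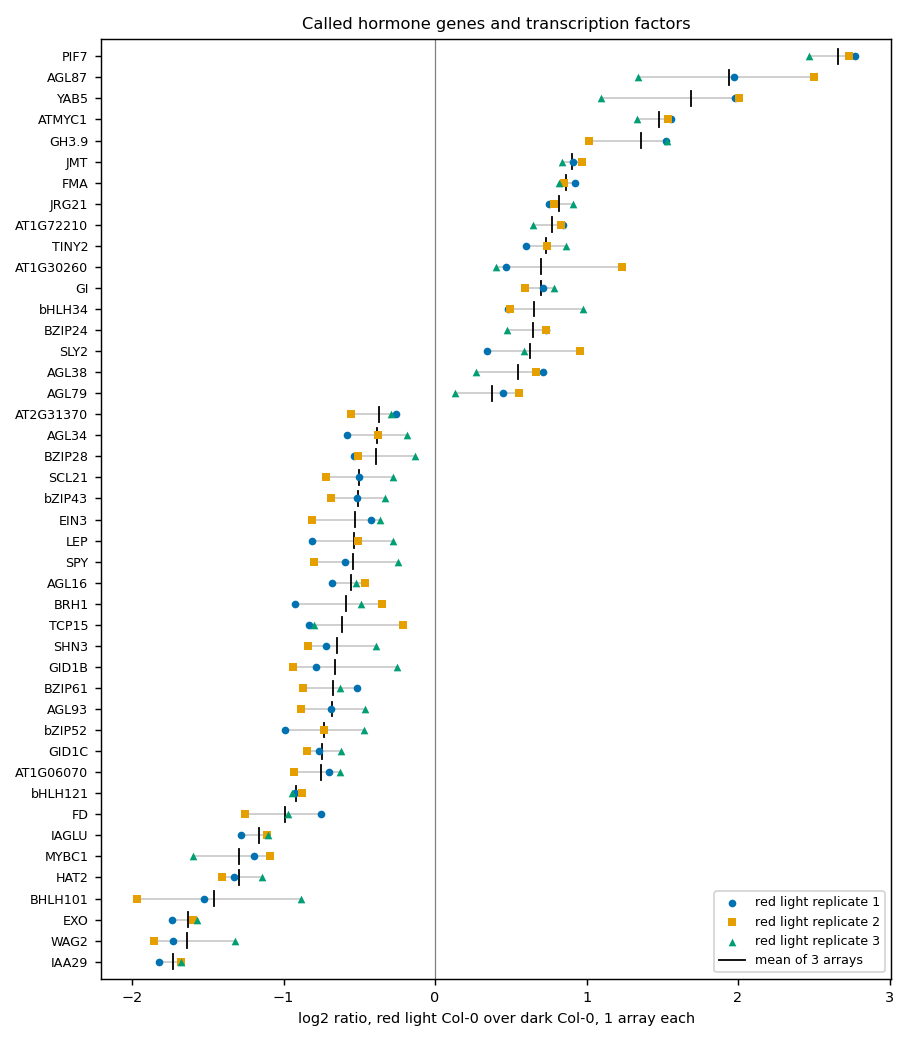
Log2 ratio of red light over dark Col-0 on each red light array (points) and their mean (black tick) for 44 called genes of hormone pathways and transcription factor families. There are 17 genes above 0, led by PIF7 at 2.66, and 27 below 0, down to IAA29 at -1.73.

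Of 12 measured genes of nitrogen and sulfur uptake and assimilation 5 rose and 3 fell. AT1G68570 (NPF3.1), of the nitrate and peptide transporter family, read 2.49, 2.72 and 1.89 (5.16-fold). AT3G21670 (NPF6.4) read 1.73, 1.91 and 1.50, and AT1G59740 (NPF4.3) 1.08, 0.82 and 1.19. AT1G33440 (NPF4.4) was lower at -1.08, -1.19 and -0.91, and APS4, an ATP sulfurylase of sulfate assimilation, at -1.02 ± 0.13. Without any 1 red light array, 3 genes of this group were called higher in place of 5. Of 15 genes of starch, sucrose and sugar transport 5 rose and 2 fell. SWEET1 (AT1G21460), a sugar transporter, read 1.85, 1.84 and 0.92, and SWEET16 (AT3G16690), a vacuolar one, -1.69, -1.02 and -1.82. SWEET11 was lower at -0.78 ± 0.23, and SWEET13 and SWEET17 were higher at 0.74 ± 0.32 and 0.47 ± 0.25. Replicate 3 was nearest to 0 in SWEET1, SWEET13 and the NPF genes AT1G68570 and AT3G21670, but farthest from 0 in SWEET16. Without red light replicate 1, only 1 gene of this sugar group was called higher, SWEET1.

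Large enzyme families moved both ways, as did all genes, of which 18.8% were called higher and 19.0% lower. Of 39 UDP-glycosyltransferases, which attach sugars to small molecules, 10 rose and 10 fell, with a median of 0.02. Beside UGT78D2, the highest were UGT88A1 (1.31 ± 0.22) and UGT74D1 (1.16 ± 0.19), and UGT72E3 (-0.98 ± 0.22) was among the lowest. Of these 20 calls 9 held under every alternative, and without red light replicate 1 the counts were 6 higher and 5 lower, and without replicate 2, 5 lower. Of 12 cytochrome P450 genes, nearly all of the CYP71B family, 2 rose and 4 fell. CYP71B26 (AT3G26290) read 1.27, 1.14 and 1.36, whereas its relatives CYP71B19 and CYP71B23 stood at -1.14 ± 0.46 and -1.04 ± 0.10. Without red light replicate 1 or 2, 1 P450 gene was called higher and 2 lower. Of 15 genes of beta-glucosidases and glucosinolate metabolism 5 rose and 2 fell, led by BGLU28 (AT2G44460) at 1.92, 1.74 and 1.67. Only 2 of these 7 calls held under every alternative, and without red light replicate 1 or 2 the counts were 2 higher and 1 lower. Of 6 glutathione transferases GSTF3 was lower at -1.35 ± 0.34 and GSTU20 higher at 0.50 ± 0.13, a call that ended without red light replicate 1 or 2. Members of these families resemble each other in sequence, and cross-hybridisation between them was not tested.

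Of 11 measured chaperone genes 8 rose and 1 fell (median 0.55). Cpn60beta2 (AT3G13470), a subunit of the plastid chaperonin that folds Rubisco, read 2.11, 1.20 and 1.31. HSP93-III (AT3G48870), a motor of plastid protein import, was level at 0.99, 0.93 and 1.02. BIP1, the Hsp70 of the endoplasmic reticulum, stood at 0.57 ± 0.03. ATHSP22.0 (AT4G10250), a small heat shock protein of the endoplasmic reticulum, read -2.78, -2.98 and -2.15, 6.22-fold lower. Of these 9 calls 3 held under every alternative (Cpn60beta2, HSP93-III and ATHSP22.0), and without red light replicate 1 only 2 genes were called higher.

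All 7 measured core histone genes were called higher: the histone H3 genes AT5G10980, AT4G40040, AT5G65360 and AT5G10400, the male-gamete H3 gene MGH3, and the H2B genes HTB1 and HTB4. AT5G10980 read 1.33, 1.86 and 1.13, AT5G65360 1.19, 1.98 and 0.95, and HTB1 1.30, 1.46 and 0.36. In each of these 3, replicate 2 was highest and replicate 3 lowest. The calls of HTB1, MGH3 and HTB4 ended under some alternatives, and without red light replicate 1 or 2 the group of 18 histone and chromatin genes had 4 called higher in place of 8. Histone genes of a class are near-identical, so that their features may share signal and are not separate evidence. Of 11 other genes in the group, chromatin remodellers, histone deacetylases and a linker histone, CHR23 was higher at 0.49 ± 0.11 and CHR42 lower at -0.46 ± 0.31. The calls of CHR23 and CHR42 also ended under some alternatives. In the cell cycle group of 7 genes AUR1, an Aurora kinase of mitosis, rose at 0.93, 0.92 and 0.80, and PRL, a replication licensing factor, at 0.60, 0.45 and 0.58. SIM, an inhibitor of division in endoreduplicating cells, read -0.99, -0.08 and -0.82, and its call ended without red light replicate 1 or 3.

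Of 16 tubulin, actin and kinesin genes 11 did not pass. TUB1 (AT1G75780), a beta-tubulin, fell far more than the others, at -1.83, -2.23 and -1.49 (3.61-fold lower). TUB5 and TUB9 stood at -0.61 ± 0.29 and -0.63 ± 0.29, and the alpha-tubulins TUA6 and TUA5 at 0.65 ± 0.20 and 0.38 ± 0.17. Only the call of TUB1 held under every alternative. Of 37 genes of vesicle traffic 12 fell and 1 rose (median -0.25), and 1 of the 12 fell by more than 2-fold. The small GTPase gene ARLA1B read -1.38, -0.83 and -1.14, PRA8 -0.89, -1.10 and -0.81, and YKT61, a membrane fusion protein, -0.83, -0.81 and -0.78. VPS2.2, of the ESCRT machinery that sorts membrane proteins, was the member that rose, at 1.16, 1.05 and 0.71. Without red light replicate 1, 5 traffic genes were called lower in place of 12. In dark pifQ the median of the 37 traffic genes was also -0.25. None of the 37 was called for a difference between red light and pifQ by limma, and 5 had an unadjusted p under 0.05.

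Of 8 tetraspanins, membrane scaffold proteins, 4 fell and 1 rose, led by TET3 at -0.97 ± 0.09, with TET15 higher at 1.12 ± 0.49. Only 1 of these 5 calls held under every alternative, and without red light replicate 1 only 1 tetraspanin was called lower. Of 7 genes of ATP-citrate lyase and isocitrate dehydrogenase 4 fell. All 3 measured genes of the A subunit of cytosolic ATP-citrate lyase, which supplies acetyl-CoA outside the plastid, were called lower, at -0.75 ± 0.48 (ACLA-1), -0.56 ± 0.30 (ACLA-2) and -0.69 ± 0.14 (ACLA-3), and only ACLA-3 was called under every alternative. ACLB-1, the measured gene of the B subunit, did not pass (adjusted p = 0.96). Of 7 aldehyde dehydrogenase genes 4 were called lower, between -0.45 and -0.65, and none of these calls held under every alternative. The splicing factor genes ATU2AF35A and U2AF35B stood at -0.83 ± 0.20 and -0.65 ± 0.21, and the call of U2AF35B ended under some alternatives. None of 6 ATG8 genes, which encode the membrane tag of autophagy, was called by limma, 1 had an unadjusted p under 0.05, and with the 3 red light arrays fitted alone 1 was called. With array weights, which count red light replicate 1 far more than replicates 2 and 3, 5 of the 6 were called lower. All 6 were highest on replicate 2: APG8H, for example, read -0.27, 0.57 and -0.54. The median of the 6 was -0.22 both in red light and in dark pifQ.

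Genes used as references were not level. Of 6 measured, 4 were called higher. GAPC2 (AT1G13440), a cytosolic glyceraldehyde-3-phosphate dehydrogenase, read 1.79, 1.47 and 1.60, a call that held under every alternative, while those of UBQ14, TUA5 and TUA6 did not. The dark pifQ arrays read much alike: the median of the 6 genes was 0.37 there and 0.41 in red light. GAPC2 stood at 1.50 in pifQ, and its difference between red light and pifQ did not pass (limma, adjusted p = 0.86).

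Of 9 defence genes 2 rose and 1 fell. ECS1 (AT1G31580), a gene linked to disease resistance, read 3.68, 4.26 and 4.25 (16.7-fold). THI2.2 (AT5G36910), a thionin, an antimicrobial peptide, read 2.78, 2.48 and 2.79 (6.43-fold), while its relative THI2.1 stood at 0.31 ± 0.19 (adjusted p = 0.094). OSM34 (AT4G11650), an osmotin-like protein, read -2.52, -2.70 and -1.59. Of 6 measured seed genes, OLEO3 (AT5G51210), an oleosin that coats oil bodies, read -3.50, -3.14 and -2.43, 8.12-fold lower. AT2G44060 (LEA26) stood at -0.47 ± 0.13, a call that ended under some alternatives. Other late embryogenesis genes read higher or spread widely. LEA4-5 read 1.96, 1.11 and 0.70, and its call ended without red light replicate 1. LEA18 read 1.70, 1.01 and 0.26 (adjusted p = 0.062). The replicates spread widely in M17, at -1.75, 0.70 and -1.07 (adjusted p = 0.46). Among signalling peptides RALFL32 read -1.54, -0.26 and -1.63 and RALFL24 0.89, 1.90 and 0.57, so that replicate 2 stood apart in both. The call of RALFL32 ended under some alternatives.

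The largest changes of all included genes with only a locus identifier in the annotation used. AT3G28220 was highest of the named genes, at 5.03, 5.29 and 4.75 (5.02 ± 0.27, adjusted p = 6.71e-07). AT5G48490 read 4.25, 4.89 and 4.46, AT1G70820 4.07, 4.42 and 3.89, AT4G28780 3.77, 3.87 and 4.12, and AT1G21500 3.36, 4.51 and 3.50. Together with MSRB6, DFR, ECS1, LHCB4.1 and PSBW these made the 10 largest increases. AT5G04120 was lowest, at -3.98, -4.24 and -4.26 (-4.16 ± 0.16, adjusted p = 6.71e-07). AT5G02540 stood at -3.64 ± 0.16, AT4G11610 at -3.56 ± 0.35, AT4G35720 at -3.48 ± 0.36 and AT5G19890 at -2.88 ± 0.58. AT5G39150, AT5G39180 and AT5G39160, with neighbouring locus numbers, read alike: -4.08, -3.96 and -2.75 for AT5G39150, and -3.60 ± 0.73, -3.45 ± 0.70 and -2.96 ± 0.50 as means. Replicate 3 lay nearest to 0 in all 3, and whether their features tell them apart was not tested. OLEO3 and ATPMEPCRD (AT2G43050), at -3.26, -2.77 and -2.79, completed the 10 largest decreases. These 20 calls held under every alternative.

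The 3 called genes with the largest spread over the arrays also had only a locus identifier. AT5G07475 read 2.31, 2.74 and 0.43 (SD 1.23), AT3G15280 2.46, 0.14 and 1.22 (SD 1.16), and AT1G74460 2.54, 2.49 and 0.83 (SD 0.97). Replicate 3 was low in AT5G07475 and AT1G74460, and replicate 2 in AT3G15280. The call of AT3G15280 ended without red light replicate 1 or 3.

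The dark pifQ arrays show where the red light values differed from those of seedlings without these PIF proteins. Both sets share dark Col-0 as their reference, so the pifQ means are given beside those in red light, and the comparison rests on the test of the difference between them. By limma's contrast of the 2 groups, red light was higher in 2.20% of all genes and lower in 1.16% at an adjusted p under 0.05. Of the 208 genes named by the rule for the largest changes and the gene groups, 41 differed. In all 41 the red light mean lay farther from 0. The genes were named for their red light values, so no direction should be read from that count. In 19 of the 41 the pifQ mean lay within 0.5 of 0. In 19 of the 41 the pifQ mean was itself called, with the same sign as in red light. PIF7 is in both counts.

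**Figure D5:**
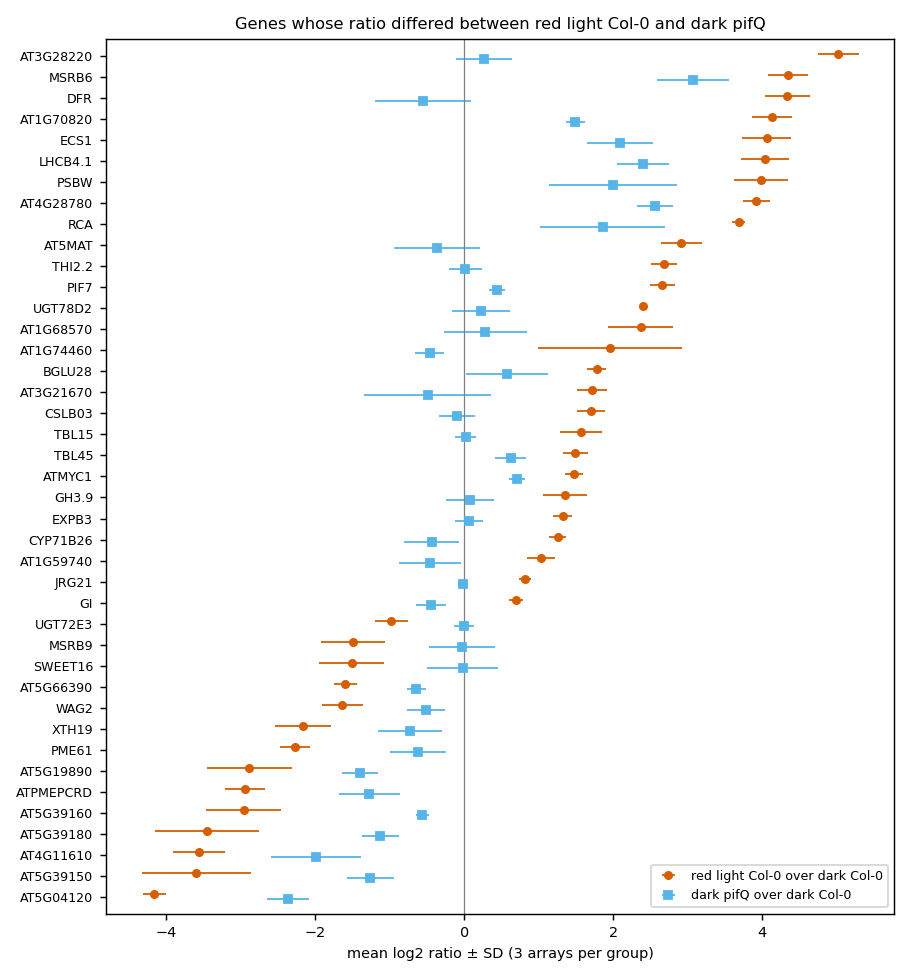
Mean log2 ratio ± SD (3 arrays per group) over dark Col-0 in red light Col-0 (circles) and in dark pifQ (squares) for the 41 named genes whose ratio differed between the groups. DFR stands at 4.34 in red light and -0.56 in pifQ, and AT5G04120 at -4.16 and -2.36.

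DFR had the largest difference of the named genes. It read -0.29, -0.09 and -1.29 in pifQ, a difference of 4.89 ± 0.31 (SE, adjusted p = 0.00016). AT5MAT and UGT78D2 stood at -0.37 and 0.22 in pifQ, with differences of 3.28 ± 0.29 (SE) and 2.18 ± 0.21 (SE), whereas UGT78D1 stood at 0.75 in pifQ and its difference of 0.21 did not pass (adjusted p = 0.67). AT3G28220, the largest increase in red light, stood at 0.26 in pifQ. PIF7 read 0.52, 0.49 and 0.32 in pifQ, THI2.2 stood at 0.02, CSLB03 at -0.10, TBL15 at 0.02 and CYP71B26 at -0.44. Apart from UGT78D1, these genes, with AT1G70820 (1.49 in pifQ) and AT5G39160 (-0.56), are the 11 named genes whose difference held under every alternative. For GI the means had opposite signs, 0.70 in red light and -0.44 in pifQ, each called, with a difference of 1.14 ± 0.16 (SE, adjusted p = 0.0099) that ended without red light replicate 1.

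For most plastid genes the difference did not pass, or did not hold, and pifQ replicate 3 stood apart in them. Of the 18 genes called in red light in the photosystem, antenna, Calvin cycle and tetrapyrrole groups, 17 were lowest on pifQ replicate 3. PSBW, for example, read 2.28, 2.68 and 1.03 in pifQ, PSBY 2.27, 2.06 and 0.65, and HEME2 1.38, 1.31 and 0.25. Without that array ATPC1 was called, with a smaller difference of 0.79 (adjusted p = 0.037), while PSBY, NdhU and PSB27 still did not pass. Of the 6 photosystem and ATP synthase genes only PSBW was called, at 2.00 in pifQ. PSBY, ATPC1, NdhU and PSB27 stood at 1.66, 1.39, 1.09 and 1.03 there, with differences between 0.92 and 1.45 and adjusted p from 0.097 to 0.30. None of the 9 tetrapyrrole genes was called in limma's contrast, and 0 had an unadjusted p under 0.05, with HEME1 at 1.26, CHLI2 at 1.09 and CHLM at 0.91 in pifQ. LHCB4.1 and RCA differed by 1.64 ± 0.23 (SE) and 1.82 ± 0.36 (SE), and with the arrays scaled to the same spread neither they nor PSBW was called. MSRB6, at 3.07 in pifQ, was higher in red light by 1.28 ± 0.26 (SE), a difference that turned to -0.24 under quantile normalization, where it was not called.

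Some wall and auxin genes had similar values in both groups. EXPA9, GH9C3 and IAA29 stood at -1.54, -1.44 and -1.55 in pifQ, within 0.19 of their red light means. XTH19, PME61 and WAG2 stood nearer to 0 in pifQ, at -0.73, -0.62 and -0.51, and their differences were called (adjusted p = 0.025, 0.0067 and 0.024). These 3 calls ended with the arrays scaled to the same spread. GH3.9 and EXPB3, which rose in red light, stood at 0.08 and 0.07 in pifQ, and AT1G68570 (NPF3.1) at 0.29. SWEET16 and MSRB9, which fell in red light, stood at -0.02 and -0.03. The differences of GH3.9, EXPB3, AT1G68570, SWEET16 and MSRB9 were called (limma, adjusted p from 0.0060 to 0.031). Each of these calls ended under at least 1 alternative.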

How the data were processed

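Each deposited file holds log2 ratios made by the authors, 1 per feature, of a two-colour array. The log base was not stated and was taken as 2. The submitters' processing notes name limma, without a version. The sources used here do not give the background correction, the normalization, the scanner or the number of dark Col-0 extracts. Intensities were not used, so that dim and saturated spots are not told apart. Precision is set by the 3 arrays per group.

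Of 45220 features 7440 carry a gene name in the platform annotation. Features of a gene were averaged per array, giving 7234 genes. With R 4.3.3 and limma 3.58.1 (lmFit, eBayes) all 6 arrays were fitted with 1 coefficient per group. The red light mean was tested against 0 (two-sided, Benjamini-Hochberg over 7234 genes, threshold 0.05), a test without the spread of the control itself. The red light mean minus the pifQ mean was tested in the same fit. The method was tested on simulated data.

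Genes were grouped in 79 lists by symbol or name, 75 with a measured gene, and 61 wrong matches were removed. Of the 7234 genes, 943 had a symbol and 582 fell in at least 1 list. Members and lists were chosen with earlier results of these data known. After their values had been seen, ATSLY1 and CRR41 were taken out of lists. The assembly factors were then also added as a group, with CRR41 placed among them. The rule for naming took the 10 largest changes per direction, up to 3 called members of a list per direction and the 3 called genes with the largest SD. Further genes were added to complete a family with their values in view. Alternatives were scalings, the red light arrays alone, feature and gene filters, a robust prior, array weights, leaving out each array, and a replicate block. Promoter motifs and sequences were not analysed here.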

Additional observations from a re-analysis of the deposited data

Results flagged for a closer look

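The features without a gene name were left out of every comparison above, and they too changed in red light. In a fit of all 45220 features, 2979 of the 37780 unnamed features were called higher and 3051 lower, against 1155 and 1246 of the 7440 named ones. These are 7.89% and 8.08% of the unnamed features and 15.5% and 16.7% of the named ones. The largest mean log2 ratio of an unnamed feature was 7.63 and the lowest -5.12, against 5.02 and -4.16 among named ones, and 21 called unnamed features stood above and 3 below every called named feature. The genes behind them are not analysed here, so the largest changes named above are the largest of the named features only.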

How the results depend on the processing

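The 1360 genes called higher and 1371 called lower in red light became 2161 and 2347 with array weights. These weights were 5.60, 0.65 and 1.04 for red light replicates 1, 2 and 3, so that this fit rests mostly on replicate 1. Leaving out 1 array in turn gave 781 (without red light replicate 1) to 1524 (without pifQ replicate 3) higher and 651 to 1477 lower, from the same arrays. At least 2-fold higher and called were 298 genes under quantile normalization against 456. Of 194 named genes called in red light, 125 were called under every alternative and 69 lost the call without at least 1 array: 58 without red light replicate 1, 49 without replicate 2 and 31 without replicate 3. None of them changed sign. The cause was not tested. The difference between red light and pifQ depended more on the processing: 159 genes higher and 84 lower became 72 and 18 with arrays scaled to the same spread and 55 and 19 under quantile normalization. Leaving out 1 array gave 45 to 364 higher and 16 to 199 lower, lowest without red light replicate 1 and highest without pifQ replicate 3. Under quantile normalization the differences of AT4G28780 and MSRB6 turned to -0.0857 and -0.24, neither called. With the replicate number as a block, 92 genes were higher and 28 lower. The deviations of same-numbered arrays from their group means correlated at -0.176, -0.148 and -0.167. Deviations from a mean of 3 arrays depend on each other, so these correlations cannot settle whether the numbers pair the samples. Each red light array correlated best with another number (0.241 for red light 1 with pifQ 3, 0.182 for 2 with 1 and 0.256 for 3 with 2).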

Other observations

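Calcium and proteolysis genes add some changes not yet described. Their counts are to be read against the 18.8% of all genes called higher and the 19.0% called lower. Of 22 genes of calmodulin binding, calcium-dependent kinases and calcium transport, 2 rose and 4 fell, and without any 1 red light array 2 were called lower. All 5 called genes other than CaS belong to the IQ-domain family, whose members bind calmodulin: IQD22 read -0.90, -0.93 and -0.80 on the 3 arrays and IQD21 (listed as iqd21) 0.90, 0.83 and 0.67. Of 25 protease and senescence genes 6 rose and 6 fell. Only 4 of these 12 calls held under every alternative, and without red light replicate 1 the counts were 2 higher and 4 lower. SBT4.12, a subtilisin-like protease, was lowest at -1.90, -1.71 and -1.50, and scpl40, a serine carboxypeptidase-like gene, stood at -1.11 ± 0.16. CLPP4, a subunit of the plastid Clp protease, was higher at 0.93, 0.59 and 0.72, a call that ended under some alternatives. Of 11 RING and U-box ubiquitin ligase genes, PUB24 (1.21 ± 0.52) and PUB26 (0.92 ± 0.22) were higher, and ATL8 (-1.08 ± 0.34) and BRH1 (-0.59 ± 0.30) lower. The call of BRH1 ended without any 1 of the red light arrays.

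Other groups held few calls. Of 8 genes of mitochondrial respiration 1 was called, FRO1, a subunit of complex I, at 0.47 ± 0.32. Of 13 genes of the exosome, the THO complex and mRNA turnover 1 was called, VCS, a factor of mRNA decapping, at -0.69 ± 0.47. Both calls ended without some red light arrays. TINY2, an AP2/ERF factor, read 0.60, 0.74 and 0.87, and SHN3, which regulates cutin, -0.72, -0.84 and -0.39. The call of SHN3 ended under some alternatives.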
